A study of Mus musculus with 14 samples.

Results

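The HOX genes are the set described here: every mouse gene whose symbol is Hox followed by the letter a, b, c or d and a number. Of the 39 such genes in the RefSeq gene table, 38 were matched to an identifier among the 38553 of each expression table (11 in the Hoxa cluster, 10 in Hoxb, 9 in Hoxc and 8 in Hoxd), and Hoxd4 was not analysed here. RNA was sequenced from the floating adipocyte layer of 3 fat depots of male C57BL/6 mice. The brown libraries came from interscapular fat, with 1 library on high-fat diet (HFD) and 1 on normal diet (ND, regular chow). The white libraries came from epididymal and inguinal fat, with 3 libraries per diet and depot, numbered 0, 1 and 2. Mice started on the high-fat diet (Research Diets D12492) or the chow at weaning at 3 weeks of age and stayed on it for 16 weeks. Tissue was digested in collagenase, for 40 min (brown) or 20 min (white), and each library pooled fat of 3 to 5 mice, so that the spread between libraries is one between pools. Values are FPKM, fragments mapped to a gene scaled to its transcript length and to the fragments of the library. The files hold no counts, so the depth behind a value is unknown, and an FPKM of 0 is given below as listed at 0.

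HOX genes encode homeodomain transcription factors that give cells of the embryo their position along the head-to-tail axis. They lie in 4 clusters, and within a cluster a gene's number, its paralog group, follows its order along the chromosome: low numbers are active early and towards the head, high numbers late and towards the tail. Once set, the pattern is kept in adult cells by Polycomb (repressing) and Trithorax (activating) chromatin proteins, and fat depots of mice and people are known to keep HOX patterns of their own. HOX proteins bind DNA together with cofactors of the PBX and MEIS families.

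In the RefSeq annotation of GRCm38.p6, the assembly also called mm10, the Hoxa cluster spans 105.514 kb of chromosome 6 (chr6:52155367-52260880) and the Hoxc cluster 115.726 kb of chromosome 15 (chr15:102921131-103036856). The Hoxb cluster spans 173.939 kb of chromosome 11 (chr11:96194316-96368254) and the Hoxd cluster 96.918 kb of chromosome 2 (chr2:74668225-74765142). The last Hoxa gene to reach 1 FPKM was Hoxa7 in the brown and epididymal libraries and Hoxa9 or Hoxa10 in the inguinal ones. Hoxa7 (chr6:52215623-52218573) and Hoxa9 (chr6:52223097-52227370) lie 4523 bases apart. The last such Hoxc gene was Hoxc8 or Hoxc9 in the brown and epididymal libraries and Hoxc10 in the inguinal ones, and Hoxc8 (chr15:102990539-102994275) and Hoxc9 (chr15:102977032-102984444) lie 6094 bases apart. Hoxa10 (chr6:52231197-52240854) lies 3826 bases beyond Hoxa9, and Hoxc10 (chr15:102966796-102971898) 5133 bases beyond Hoxc9. The promoters of Hoxa7, Hoxa9 and Hoxa10 are printed here, with that of Hoxc4, which was higher in epididymal than in inguinal adipocytes where Hoxc10 was lower. Each is a window of 300 bases around a RefSeq start (GRCm38.p6), written 5′ to 3′ in the direction of the gene, and capitals mark the letters TATAAA of a TATA box, those of the box named CCAAT, or the letters GGGCGG of a GC box, on either strand. Hoxa10 has 2 annotated starts. The Hoxc4 window lies inside the RefSeq span of that gene (chr15:103018097-103036856), and the start at the 5′ end of the span is not shown.
Hoxa7 promoter: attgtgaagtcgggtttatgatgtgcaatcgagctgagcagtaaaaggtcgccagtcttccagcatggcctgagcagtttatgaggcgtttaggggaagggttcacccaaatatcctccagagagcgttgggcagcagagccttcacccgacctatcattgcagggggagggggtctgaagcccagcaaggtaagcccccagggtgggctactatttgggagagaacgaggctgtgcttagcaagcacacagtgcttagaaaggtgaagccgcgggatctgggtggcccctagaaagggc
Hoxa9 promoter: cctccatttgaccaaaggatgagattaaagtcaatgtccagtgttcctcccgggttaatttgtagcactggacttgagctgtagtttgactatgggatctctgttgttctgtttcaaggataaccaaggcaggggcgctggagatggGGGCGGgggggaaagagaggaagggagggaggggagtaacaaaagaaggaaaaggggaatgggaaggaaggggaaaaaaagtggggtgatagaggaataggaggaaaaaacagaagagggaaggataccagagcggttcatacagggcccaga
Hoxa10 downstream start promoter: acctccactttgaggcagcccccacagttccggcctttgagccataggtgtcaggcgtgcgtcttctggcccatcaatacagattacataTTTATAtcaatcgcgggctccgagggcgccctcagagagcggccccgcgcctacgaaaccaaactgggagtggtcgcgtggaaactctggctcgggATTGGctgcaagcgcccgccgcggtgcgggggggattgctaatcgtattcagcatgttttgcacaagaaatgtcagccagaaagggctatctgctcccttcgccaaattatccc
Hoxa10 upstream start promoter: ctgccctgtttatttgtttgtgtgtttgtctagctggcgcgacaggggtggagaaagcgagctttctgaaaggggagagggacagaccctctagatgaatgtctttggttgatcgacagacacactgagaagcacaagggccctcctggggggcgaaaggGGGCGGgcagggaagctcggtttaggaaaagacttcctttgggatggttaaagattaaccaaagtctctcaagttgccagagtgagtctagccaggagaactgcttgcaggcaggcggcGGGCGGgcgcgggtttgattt
Hoxc4 promoter: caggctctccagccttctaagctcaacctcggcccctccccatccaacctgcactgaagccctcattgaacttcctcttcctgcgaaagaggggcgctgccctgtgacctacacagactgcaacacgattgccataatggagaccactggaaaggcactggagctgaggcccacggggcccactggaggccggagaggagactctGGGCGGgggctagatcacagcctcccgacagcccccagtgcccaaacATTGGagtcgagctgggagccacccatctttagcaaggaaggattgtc

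These windows are chr6:52218524-52218823 for Hoxa7, chr6:52227321-52227620 for Hoxa9, chr6:52234890-52235189 and chr6:52240805-52241104 for Hoxa10, all on the minus strand, and chr15:103034145-103034444 on the plus strand for Hoxc4. Hoxa7 held none of the 3 motifs, Hoxa9 a GC box, the downstream start of Hoxa10 a TATA and a CCAAT box, its upstream start 2 GC boxes, and Hoxc4 a GC and a CCAAT box. The number of CpG dinucleotides was 9 in Hoxa7, 4 in Hoxa9, 21 and 12 at the starts of Hoxa10, and 9 in Hoxc4. The RefSeq promoter table held 24 windows of 22 HOX genes. Their median was 14.5 CpG (from 4 to 45), beside 7.0 over all 32851 promoters of the same length. A CCAAT box was in 15 of the 24 HOX windows (37.41% of all promoters), a GC box in 10 (35.66%) and a TATA box in 4 (13.62%). Of the motifs bound by homeodomain proteins, TTTAT, whose letters lie within the reverse complement of TATAAA, was in 9 of 24 (40.01% of all), and TGATNNAT, a HOX-PBX motif, was in 4 (8.846%). The retinoic acid response motif (a direct repeat of AGGTCA with 5 bases between the copies) was searched as well, and it was in none of the 24 windows and in 0.009132% of all promoters. A motif absent from a window says only that these letters are not there.

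Before the members' values, the libraries themselves need a short description. Genes of adipocytes summed to between 11877 and 31948 FPKM (12 genes, among them Adipoq, Plin1 and Fabp4) over the 14 libraries, and 8 brown adipocyte genes summed to 1304 (HFD) and 432 FPKM (ND) in the brown libraries, against at most 259 FPKM in any white one. Markers of other cells were present too. Lymphocyte markers (14 genes) summed to 1118 and 1462 FPKM in the inguinal ND libraries 0 and 2, against 213 FPKM in library 1 of that group. In every library but inguinal ND 0 and 2, Ighm alone made up most of this sum. Epididymis genes (8 genes) summed to 53.9 FPKM in the epididymal ND library 2 and to at most 1.86 FPKM elsewhere. The mitochondrial tRNA genes, 22 in number, split the libraries: the inguinal ND library 0, the brown HFD library and the 6 epididymal ones list every such gene at 0, while the remaining 6 libraries have values for 10 to 19. On HFD this difference in the files runs exactly with the white depot and cannot be told apart from it. No 2 libraries held identical values. In such bulk samples, fewer cells of a type and less RNA per cell cannot be told apart, and which cells of the floating layer held each HOX transcript was not measured.

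Mid-cluster genes made up most of the HOX expression in every depot. Hoxc8 and Hoxc6, genes of thoracic identity in the embryo, were the highest and second highest members in all 6 groups. Hoxc8 averaged 13.2 and 15.8 FPKM in brown adipocytes on HFD and ND, 28.4 ± 5.32 and 39.3 ± 8.96 FPKM in epididymal adipocytes on HFD and ND, and 42.4 ± 5.57 and 17.1 ± 3.97 FPKM in inguinal adipocytes on HFD and ND (SD, n = 3 for each white group, single brown libraries). Hoxc6 was at 9.26 and 12.7 FPKM in the brown HFD and ND libraries, 16.3 ± 3.28 and 17.3 ± 4.36 FPKM in epididymal and 19.3 ± 1.56 and 11.9 ± 5.07 FPKM in inguinal adipocytes on HFD and ND. The members in ranks 3 to 5 differed between groups. They were Hoxc4, Hoxc5 and Hoxa5 (brown HFD), Hoxc4, Hoxd8 and Hoxa7 (brown ND), Hoxc5, Hoxc4 and Hoxd3 (epididymal HFD), Hoxa7, Hoxd8 and Hoxc4 (epididymal ND), Hoxc10, Hoxa10 and Hoxc5 (inguinal HFD) and Hoxc10, Hoxa7 and Hoxd8 (inguinal ND). Hoxc10 and Hoxa10, both of paralog group 10, thus entered the highest ranks in inguinal adipocytes only.

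The highest-numbered genes of each cluster, with Hoxb1 and Hoxd1 at the other end, were listed at 0 or stayed low. Hoxa11, Hoxb1, Hoxb13, Hoxc12, Hoxc13, Hoxd11, Hoxd12 and Hoxd13 were listed at 0 in all 14 libraries, and Hoxa13, Hoxc11, Hoxd1 and Hoxd10 stayed below 0.5 FPKM in each. Hoxc11, the next gene beyond Hoxc10, was above 0 in 4 inguinal libraries, at most at 0.389 FPKM, and was listed at 0 in the brown and epididymal libraries. The other 26 members reached 0.5 FPKM in at least 3 white libraries and were tested. Of these, 9 were at 1 FPKM or more in all 14 libraries. Hoxa10 and Hoxb3 passed that filter only because of inguinal libraries, and Hoxa2 only with libraries of both white depots. The RefSeq spans of 19 of the 38 members overlap another gene (Hoxa3 with Hoxa4, Hoxa5 and Hoxa6, for example), and the strand setting of the counting is not given in the sources used here, so their reads may be shared with a neighbour. Among the members the results turn on, Hoxa7, Hoxa9, Hoxc6, Hoxc8, Hoxc10, Hoxb8 and Hoxd9 do not overlap another RefSeq gene, while Hoxa5, Hoxa6, Hoxa10, Hoxb2, Hoxc4, Hoxc5, Hoxc9 and Hoxd8 do.

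**Figure D1:**
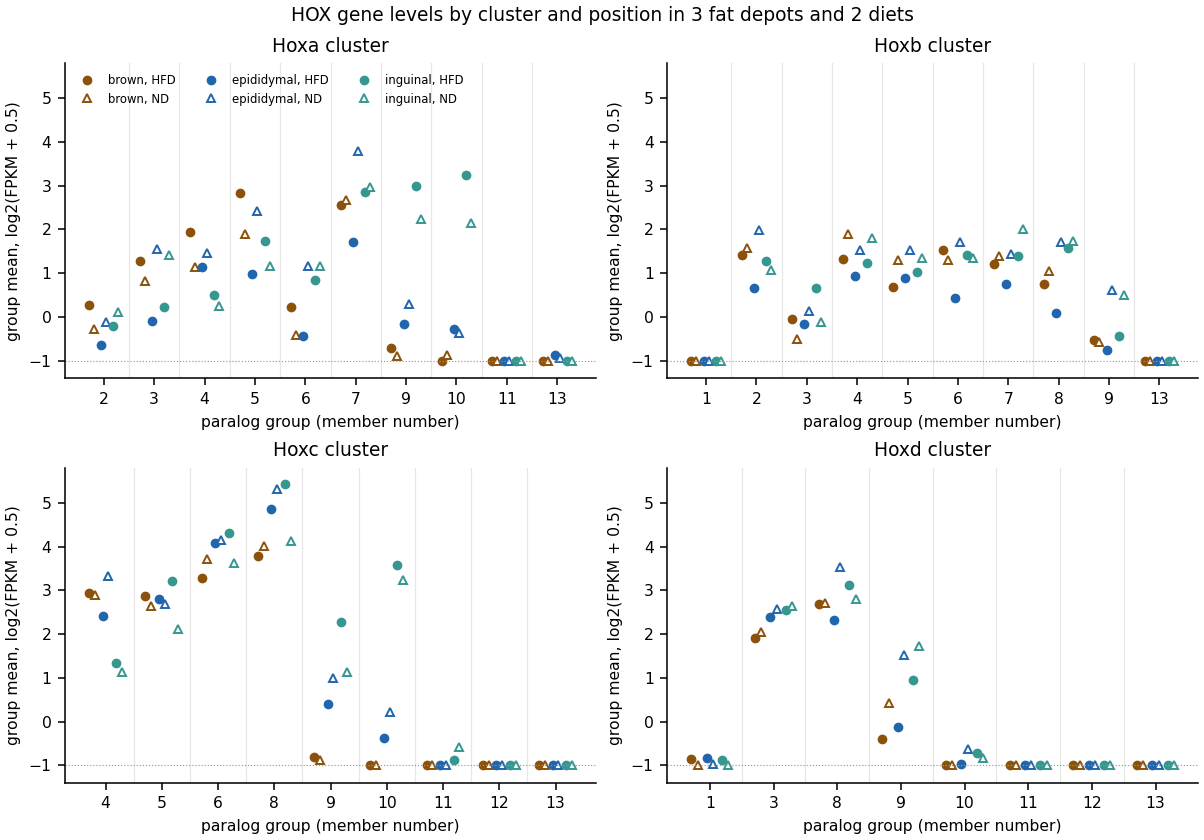
Group means of 37 of the 38 HOX genes as log2(FPKM + 0.5), 1 panel per cluster, with the paralog group on the x axis, brown, epididymal and inguinal adipocytes side by side, filled circles for HFD and open triangles for ND, and a dotted line at the value of a gene listed at 0. Hoxa9, Hoxa10 and Hoxc10 stand high in inguinal adipocytes and near the dotted line in brown adipocytes, while Hoxc8 is the highest gene in every group.

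Library by library, the last Hoxa gene at 1 FPKM or more was Hoxa7 in both brown and all 6 epididymal libraries, and in inguinal adipocytes Hoxa10 in 5 libraries and Hoxa9 in the sixth, ND library 2. The last Hoxc gene was Hoxc8 in both brown libraries, Hoxc8 or Hoxc9 in the epididymal ones and Hoxc10 in all 6 inguinal ones. The Hoxb and Hoxd clusters did not part the depots in this way: the last gene was Hoxb8 in both brown and in 5 of the inguinal libraries, and Hoxd9 in 5 of the inguinal and all epididymal ND libraries. Summed over the 38 members, the level was 77.0 FPKM (HFD) and 79.3 FPKM (ND) in brown adipocytes. It ranged over 76.1 to 93.4 FPKM (HFD) and 117 to 160 FPKM (ND) in epididymal adipocytes, and over 140 to 150 FPKM (HFD) and 87.1 to 123 FPKM (ND) in inguinal ones. In epididymal adipocytes every HFD library lay below every ND library, and in inguinal adipocytes every HFD library lay above every ND library. Genes of paralog groups 9 to 13 gave 0.823% (HFD) and 1.42% (ND) of the sum in brown adipocytes and 1.31 to 5.41% in the 6 epididymal libraries, against 17.8 to 27.1% in the 6 inguinal ones. Groups 1 to 3 gave 5.05 to 13.4% in all 14 libraries, with the depots mixed. The share of the Hoxc cluster was 68.2 to 71.9% in epididymal adipocytes on HFD and 51.4 to 55.6% on ND, 58.7 to 61.7% in inguinal adipocytes on HFD and 40.8 to 51.6% on ND, and 47.5% (HFD) and 51.9% (ND) in brown adipocytes.

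**Figure D2:**
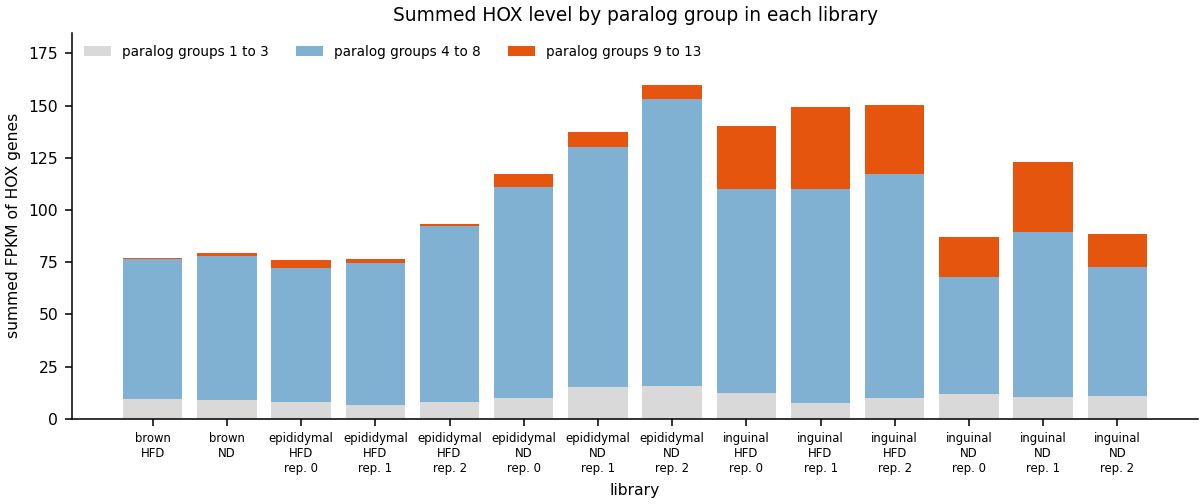
Stacked bars of the summed FPKM of the 38 HOX genes in each of the 14 libraries, split into paralog groups 1 to 3, 4 to 8 and 9 to 13. The top segment, groups 9 to 13, is 17.8 to 27.1% of the bar in inguinal libraries and at most 5.41% in brown and epididymal ones.

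On HFD, genes of paralog groups 4 to 10 were called between epididymal and inguinal adipocytes, and all but Hoxc4 were lower in epididymal ones. Of the 26 tested members, 9 were lower and 1 was higher in epididymal than in inguinal adipocytes (limma on log2(FPKM + 0.5), Benjamini-Hochberg adjusted p under 0.05), where 10.6% of all 14959 genes tested were called, 3.53% lower and 7.08% higher. The median difference of the members was -0.67 on the log2 scale, beside 0.04 over all genes. In paralog groups 9 to 13, where all tested members were of groups 9 and 10, 5 of 6 were lower, with a median of -2.52. Hoxa10 entered the test only through inguinal libraries. In groups 1 to 3 none of 6 was called and the median was -0.37. In groups 4 to 8, 4 of 14 were lower and 1 higher.

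Hoxc10, whose paralog group gives lumbar vertebrae their rib-free form in the mouse embryo, was at 0.614, 0.146 and 0.0360 FPKM in epididymal HFD libraries, against 9.85, 13.8 and 10.8 FPKM in inguinal HFD libraries. Every inguinal library stood far above every epididymal one, and the difference of -4.03 (SE 0.32) on the log2(FPKM + 0.5) scale had a limma adjusted p of 0.000128. Hoxa10, which also patterns the reproductive tract, was at 0.717, 0.158 and 0.0815 FPKM in epididymal HFD libraries, against 8.46, 8.07 and 10.4 FPKM in inguinal ones (log2 difference -3.60, SE 0.61, limma adjusted p = 0.00341). Hoxa9, a regulator of blood progenitors as well as of axial identity, was at 0.687, 0.466 and 0.0404 FPKM in epididymal HFD libraries, against 4.96, 10.6 and 6.96 FPKM in inguinal ones (log2 difference -3.17, SE 0.51, limma adjusted p = 0.00270). These 3 genes were low in all epididymal HFD libraries without overlap with the inguinal ones.

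Hoxc9, which sets thoracic identity in motor neurons, was at 1.00, 0.857 and 0.620 FPKM in epididymal HFD libraries, against a narrow 4.58, 4.40 and 3.97 FPKM in inguinal ones (log2 difference -1.87, SE 0.30, limma adjusted p = 0.00260). Hoxc4, at the low-numbered end of the same cluster, went the other way: 5.58, 4.23 and 4.55 FPKM in epididymal HFD libraries, against 1.72, 2.09 and 2.28 FPKM in inguinal ones (log2 difference 1.06, SE 0.26, limma adjusted p = 0.0226). Along the Hoxc cluster the depots therefore crossed over, with Hoxc4 higher and Hoxc9 and Hoxc10 lower in epididymal adipocytes. The genes between them, Hoxc5, Hoxc6 and Hoxc8, were not called, at log2 differences of -0.41 (adjusted p = 0.497), -0.25 (0.696) and -0.58 (0.141). With TMM scaling Hoxc8 was called lower in epididymal adipocytes as well (-0.66, limma adjusted p = 0.0347).

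Among the remaining calls on HFD, Hoxb8 was at 0.513, 0.799 and 0.395 FPKM in epididymal libraries, against 3.46, 1.96 and 2.04 FPKM in inguinal ones (log2 difference -1.46, SE 0.31, limma adjusted p = 0.0111). Hoxa7 was at 2.41, 2.41 and 3.57 FPKM in epididymal and 4.88, 8.03 and 7.28 FPKM in inguinal HFD libraries (log2 difference -1.12, SE 0.28, limma adjusted p = 0.0236). Hoxd8 was at 4.24, 4.87 and 4.40 FPKM in epididymal and 8.54, 6.71 and 9.21 FPKM in inguinal HFD libraries (log2 difference -0.78, SE 0.18, limma adjusted p = 0.0173). In each of these 3 genes the depots did not overlap. Hoxa6 (mean 0.236 against 1.29 FPKM, log2 difference -1.25, limma adjusted p = 0.0129) was also lower in epididymal than in inguinal adipocytes, as was Hoxd9, at 0.581, 0.282 and 0.371 FPKM in epididymal and 1.24, 2.13 and 0.886 FPKM in inguinal HFD libraries (log2 difference -1.03, limma adjusted p = 0.0377). In all, the depots did not overlap on HFD in 18 of the 26 members, where this held for 38.4% of all genes tested. The calls of Hoxc10, Hoxa10, Hoxa9 and Hoxc9 held under every alternative run, and those of the other 6 did not. Hoxb8 was lost without inguinal replicate 0 (adjusted p = 0.0508). Hoxa6 was lost without epididymal replicate 1 or inguinal replicate 0 or 2 (0.0584 to 0.0654), and Hoxa7 without epididymal replicate 0 or 1 or inguinal replicate 1 or 2 (0.0923 to 0.0997). Hoxc4 was lost without any 1 of the 6 libraries (0.0569 to 0.108), Hoxd8 without any but inguinal replicate 1 (0.0503 to 0.0864) and Hoxd9 without any but inguinal replicate 2 (0.0674 to 0.154). The total without 1 library was 5 to 7. On HFD same-numbered libraries of the 2 depots correlated at 0.111 to 0.184, and what a number shares is not known. With the number as a block in limma 8 members were called, Hoxc4 (adjusted p = 0.0594) and Hoxd9 (0.0687) no longer among them.

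On ND Hoxc10 was again far lower in epididymal adipocytes, but 1 inguinal library stood apart in Hoxa9 and Hoxa10, and Hoxc9 overlapped between the depots. Of the 26 members, 5 were higher and 1 was lower in epididymal than in inguinal adipocytes, where 6.51% of all genes tested were called, 2.36% higher and 4.15% lower. The median difference was 0.21 on the log2 scale, beside 0.00 over all genes, and the depots did not overlap in 9 of the 26 members, beside 19.1% of all genes. Hoxc10 was at 0.722, 0.801 and 0.473 FPKM in epididymal ND libraries, against 6.75, 12.4 and 7.56 FPKM in inguinal ones (log2 difference -2.98, SE 0.32, limma adjusted p = 0.000698). The depots did not overlap. Hoxa9 was at 0.434, 0.835 and 0.883 FPKM in epididymal ND libraries, against 3.45, 7.91 and 1.25 FPKM in inguinal ones, and missed the threshold (log2 difference -1.69, SE 0.51, limma adjusted p = 0.0695). Hoxa10 was listed at 0 in epididymal ND library 2 and was at 0.559 and 0.269 FPKM in libraries 0 and 1, against 4.33, 6.96 and 0.518 FPKM in inguinal ones (log2 difference -2.16, SE 0.61, limma adjusted p = 0.0552). The low inguinal value in both genes was that of replicate 2, 1 of the 2 libraries rich in lymphocyte markers. The other such library, replicate 0, was at 3.45 FPKM for Hoxa9 and 4.33 FPKM for Hoxa10, and a part of these cells was not tested. Without replicate 2, both were called lower in epididymal adipocytes by limma, Hoxa9 at -2.27 (adjusted p = 0.0225) and Hoxa10 at -3.02 (adjusted p = 0.00394). As that library is singled out here by its low values in these same genes, the gain of the calls is no further evidence. With the replicate number as a block in limma Hoxa10 (adjusted p = 0.0373) and Hoxa7 (0.0477) were called on ND. The same block lost the ND calls of Hoxb2 (0.0789) and Hoxd8 (0.0660), given below. On ND same-numbered libraries of the 2 depots correlated at only 0.133, 0.0288 and 0.0761. Hoxc9, lower by 1.87 in epididymal adipocytes on HFD, was on ND at 1.50, 2.04 and 0.929 FPKM in epididymal libraries, against 1.56, 2.46 and 1.02 FPKM in inguinal ones (log2 difference -0.12, limma adjusted p = 0.839).

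**Figure D3:**
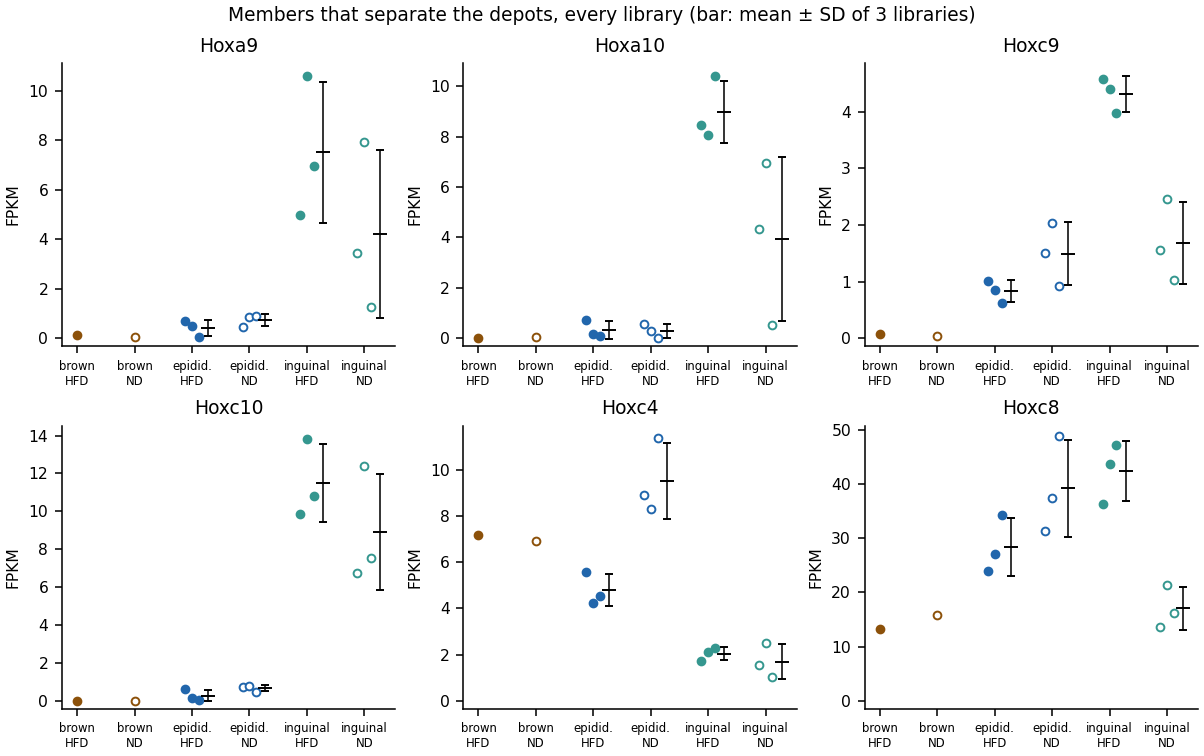
FPKM of Hoxa9, Hoxa10, Hoxc9, Hoxc10, Hoxc4 and Hoxc8 in every library (points), with the mean ± SD of the 3 libraries of each white group (bars), filled for HFD and open for ND. Hoxc10 lies between 6.75 and 13.8 FPKM in the inguinal libraries and at or below 0.801 FPKM in all others, and the inguinal ND points of Hoxa9 and Hoxa10 spread widely.

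The members higher in epididymal adipocytes on ND came from paralog groups 2 to 8. Hoxc4 was at 8.90, 8.30 and 11.4 FPKM in epididymal ND libraries, against 1.53, 2.51 and 1.02 FPKM in inguinal ones (log2 difference 2.24, SE 0.26, limma adjusted p = 0.00107). Hoxc8 was at 31.4, 37.5 and 49.0 FPKM in epididymal ND libraries, against 13.6, 21.4 and 16.2 FPKM in inguinal ones (log2 difference 1.18, SE 0.22, limma adjusted p = 0.0124). Both were higher in every epididymal library than in any inguinal one. Hoxa5, which patterns the lung and the neck and upper trunk skeleton, was at 5.81, 4.66 and 4.10 FPKM in epididymal and 2.80, 1.46 and 0.934 FPKM in inguinal ND libraries (log2 difference 1.34, SE 0.31, limma adjusted p = 0.0264). Hoxd8 was at 11.1, 11.7 and 10.3 FPKM in epididymal and 6.31, 5.57 and 7.45 FPKM in inguinal ND libraries (log2 difference 0.74, SE 0.18, limma adjusted p = 0.0353). Hoxb2, a hindbrain gene in the embryo, was at 2.87, 3.35 and 4.16 FPKM in epididymal and 1.57, 1.87 and 1.33 FPKM in inguinal ND libraries (log2 difference 0.92, SE 0.24, limma adjusted p = 0.0449). In these 3 genes, too, the depots did not overlap. Only Hoxc10 was called on ND in every alternative run. When the fit held the ND libraries alone, it was the 1 call left, where 0.0936% of all genes were called. Hoxc8 was lost without epididymal replicate 2 (adjusted p = 0.0568), and Hoxa5 without any of the 3 epididymal libraries or inguinal replicate 2 (0.0656 to 0.0829). Hoxd8 was lost without any of the epididymal libraries or inguinal replicate 0 (0.0660 to 0.102), and Hoxb2 without any of the epididymal libraries or inguinal replicate 0 or 2 (0.0656 to 0.148). The total was 3 without epididymal replicate 0 or 1, where 3.17% and 3.24% of all genes were called. It was 2 without epididymal replicate 2 (1.76% of all genes) and 9 without inguinal replicate 1 (20.7% of all genes). Without inguinal ND replicates 1 and 2, the inguinal ND libraries with mitochondrial tRNA above 0, the inguinal ND group is 1 library, assumed to vary like the other groups. Hoxa5 then stood at a log2 difference of 0.68, Hoxb2 at 0.93 and Hoxd8 at 0.76. Leaving out inguinal ND replicates 0 and 2, the libraries rich in lymphocyte markers, also leaves 1 library in that group. In that fit Hoxc8 fell to 0.84 and Hoxb2 to 0.73, and Hoxd8 stood at 0.92. Hoxa9 stood at -2.81 and Hoxa10 at -3.33 there.

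Marker genes of other cells also differed between the white depots. Mesothelial markers (9 genes) summed to 8.49 to 21.7 FPKM in epididymal libraries, against 0.0538 to 0.663 FPKM in inguinal ones, and 6 of the 8 tested (HFD) and 7 of the 8 tested (ND) were higher. On HFD all 11 endothelial markers were lower in epididymal adipocytes (64.6 to 122 FPKM in sum, against 360 to 461 FPKM), 10 of 12 macrophage markers were higher (1304 to 2293 against 226 to 355 FPKM), and of 12 fibroblast and preadipocyte markers 1 was higher and 2 were lower (362 to 459 against 846 to 1066 FPKM). On ND, 12 of 14 lymphocyte markers were lower in epididymal adipocytes (140 to 169 FPKM in sum, against 213 to 1462 FPKM). Within the adipocyte list no gene was called between the white depots on either diet. The part of these cells in the HOX differences was not tested.

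High-fat diet lowered 11 HOX genes in epididymal adipocytes and raised none. Of all genes tested, 19.5% were called for this comparison, 7.35% lower and 12.2% higher on HFD. The median diet difference of the 26 members was -0.67 on the log2 scale, beside 0.07 over all genes, and the diets did not overlap in 15 of 26 members, beside 42.4% of all genes. The lower genes came from every cluster: 4 of 9 tested in Hoxa, 4 of 8 in Hoxb, 1 of 6 in Hoxc and 2 of 3 in Hoxd. By paralog group they were 2 of 6 in groups 1 to 3, 7 of 14 in groups 4 to 8 and 2 of 6 in groups 9 to 13.

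Hoxa7, a mid-trunk gene, was at 2.41, 2.41 and 3.57 FPKM in epididymal HFD libraries, against 10.7, 12.7 and 16.7 FPKM in epididymal ND libraries (log2 difference -2.07, SE 0.28, limma adjusted p = 0.000337). Hoxd8 was at 4.24, 4.87 and 4.40 FPKM on HFD, against 11.1, 11.7 and 10.3 FPKM on ND, tight within each diet (log2 difference -1.20, SE 0.18, limma adjusted p = 0.000718). Hoxd9, which with its paralogs patterns the limb and the lumbosacral spine, was at 0.581, 0.282 and 0.371 FPKM on HFD, against 2.23, 2.56 and 2.36 FPKM on ND (log2 difference -1.67, SE 0.29, limma adjusted p = 0.00157). All 3 epididymal HFD libraries lay well below the ND ones in these genes. Hoxb8 was at 0.513, 0.799 and 0.395 FPKM on HFD, against 2.46, 2.40 and 3.52 FPKM on ND (log2 difference -1.62, SE 0.31, limma adjusted p = 0.00333). Hoxa5 was at 1.44, 1.23 and 1.72 FPKM on HFD, against 5.81, 4.66 and 4.10 FPKM on ND (log2 difference -1.44, SE 0.31, limma adjusted p = 0.00598). Hoxb2 was at 0.881, 0.934 and 1.46 FPKM on HFD, against 2.87, 3.35 and 4.16 FPKM on ND (log2 difference -1.32, SE 0.24, limma adjusted p = 0.00253). These, too, showed no overlap between diets.

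Hoxa3, needed for the thymus and parathyroid in the embryo, was at 0.562, 0.261 and 0.509 FPKM in epididymal HFD libraries, against 1.82, 3.71 and 1.80 FPKM in epididymal ND libraries (log2 difference -1.60, limma adjusted p = 0.0113). Hoxa6 averaged 0.236 ± 0.0961 FPKM on HFD and 1.74 ± 0.384 FPKM on ND (SD, n = 3 each, log2 difference -1.60, limma adjusted p = 0.00169). Hoxb6 was at 0.669, 0.965 and 0.883 FPKM on HFD, against 2.20, 2.22 and 3.97 FPKM on ND (log2 difference -1.27, limma adjusted p = 0.0116). Hoxb9 was below 0.2 FPKM in all 3 HFD libraries and at 0.762, 0.762 and 1.56 FPKM on ND (log2 difference -1.32, limma adjusted p = 0.0337). Hoxc4 was at 5.58, 4.23 and 4.55 FPKM on HFD, against 8.90, 8.30 and 11.4 FPKM on ND (log2 difference -0.92, limma adjusted p = 0.0276), the only call among the Hoxc genes. Among the highest members, Hoxa7, Hoxd8 and Hoxc4 fell, while Hoxc8 and Hoxc6 missed the threshold. Hoxc8 was at 23.9, 27.1 and 34.3 FPKM on HFD, against 31.4, 37.5 and 49.0 FPKM on ND (log2 difference -0.45, limma adjusted p = 0.191), and was called lower with quantile normalization (-0.67, adjusted p = 0.0194). Hoxc6 was at 15.4, 13.6 and 20.0 FPKM on HFD, against 12.6, 18.1 and 21.2 FPKM on ND (log2 difference -0.07). Hoxc5 was at 5.41, 6.33 and 7.69 FPKM on HFD, against 5.05, 6.99 and 5.76 FPKM on ND (log2 difference 0.12). Hoxd3 was at 5.68, 4.16 and 4.47 FPKM on HFD, against 3.95, 5.49 and 7.02 FPKM on ND (log2 difference -0.16). The diets overlapped in these 4 genes. The calls of Hoxa5, Hoxa6, Hoxa7, Hoxb2, Hoxb8, Hoxd8 and Hoxd9 held under every alternative run. Hoxa3 was lost without HFD replicate 1 (adjusted p = 0.0518) or ND replicate 1 (0.0511), and Hoxb6 without HFD replicate 0 (0.0541). Hoxb9 was lost without any 1 of the 6 libraries (0.0556 to 0.116), and Hoxc4 without any but ND replicate 1 (0.0516 to 0.102). The total without 1 library was 8 to 10.

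Other cells' markers moved with diet in the same epididymal libraries. All 11 endothelial markers were lower on HFD, with sums of 64.6 to 122 FPKM on HFD against 662 to 749 FPKM on ND. Of 12 fibroblast and preadipocyte markers, 4 were lower and none was higher (362 to 459 FPKM on HFD against 800 to 1338 FPKM on ND), and of 12 macrophage markers 8 were higher and 1 was lower (1304 to 2293 FPKM on HFD against 364 to 654 FPKM on ND). Of the 12 adipocyte genes 1 was higher and none was lower, with sums of 17380 to 26298 FPKM on HFD and 17811 to 31948 FPKM on ND. The part of these cells in the HOX differences was not tested. Leaving out the epididymal ND library with epididymis genes, replicate 2, lost the call of Hoxb9 (adjusted p = 0.116) and of Hoxc4 (0.0980) among the 11.

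**Figure D4:**
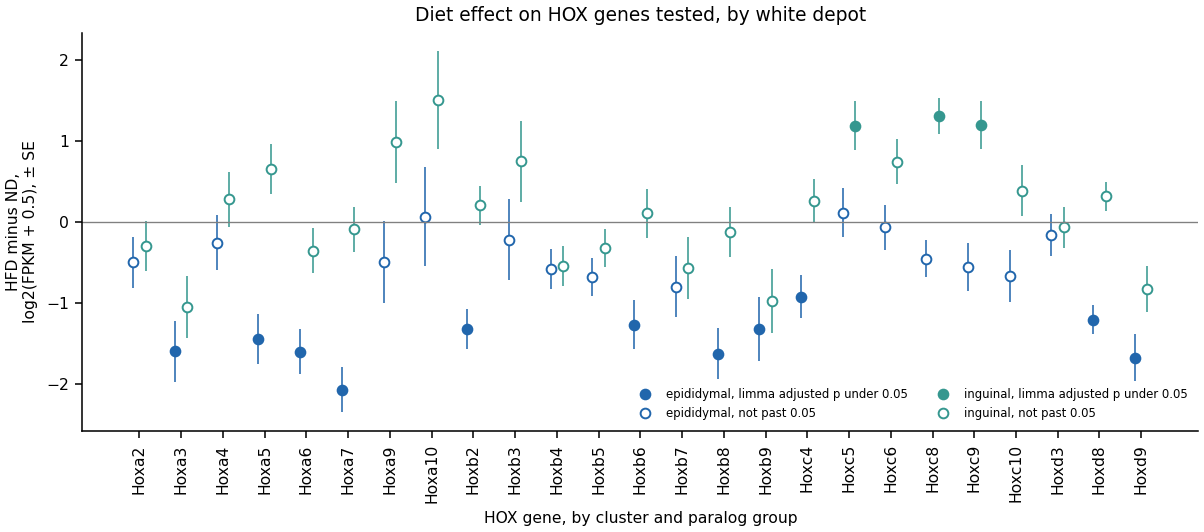
HFD minus ND on the log2(FPKM + 0.5) scale, ± SE, for 25 of the 26 tested HOX genes in epididymal and inguinal adipocytes, filled where the limma adjusted p was under 0.05. The 11 filled epididymal points lie between -0.92 and -2.07, and the 3 filled inguinal points, all Hoxc genes, between 1.18 and 1.30.

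In inguinal adipocytes the share of HOX genes that were higher on HFD was close to that of all genes: 3 of 26 tested members, Hoxc5, Hoxc8 and Hoxc9, rose and none fell, where 19.5% of all genes tested were called, 9.3% higher and 10.2% lower. The median diet difference of the members was 0.23, beside -0.01 over all genes, and the diets did not overlap in 8 of 26 members, beside 33.1% of all genes. Hoxc8 was at 36.3, 43.8 and 47.2 FPKM in inguinal HFD libraries, against 13.6, 21.4 and 16.2 FPKM in inguinal ND libraries (log2 difference 1.30, SE 0.22, limma adjusted p = 0.00272). Hoxc9 was at 4.58, 4.40 and 3.97 FPKM on HFD, against 1.56, 2.46 and 1.02 FPKM on ND (log2 difference 1.19, SE 0.30, limma adjusted p = 0.0164). Hoxc5 was at 8.87, 10.1 and 7.21 FPKM on HFD, against 2.68, 6.37 and 2.51 FPKM on ND (log2 difference 1.18, SE 0.30, limma adjusted p = 0.0178). In each the HFD libraries all lay above the ND ones, and ND replicate 1 was the nearest to them. Hoxc6, between Hoxc5 and Hoxc8, was at 20.9, 17.8 and 19.0 FPKM on HFD, against 9.31, 17.8 and 8.68 FPKM on ND, and missed the threshold (log2 difference 0.74, limma adjusted p = 0.0797), which it passed with TMM scaling (0.78, adjusted p = 0.0413). Hoxc10 was at 9.85, 13.8 and 10.8 FPKM on HFD, against 6.75, 12.4 and 7.56 FPKM on ND (log2 difference 0.38, limma adjusted p = 0.422).

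In the inguinal ND libraries 0 and 2 these Hoxc genes were lowest and the lymphocyte markers highest. On HFD 13 of 14 lymphocyte markers were lower (426 to 610 FPKM in sum, against 213 to 1462 FPKM on ND). These sums hide the fall, as Ighm was at 412, 595 and 512 FPKM on HFD, against 460, 134 and 460 FPKM on ND. Every other lymphocyte marker was higher in each ND library, library 1 included, than in any HFD library. Cd79a, for example, was at 2.78, 2.40 and 1.55 FPKM on HFD, against 166, 19.1 and 178 FPKM on ND. Of 12 fibroblast and preadipocyte markers 1 was higher and 6 were lower on HFD. Of the 6 mural and smooth muscle markers tested 3 were higher (149 to 169 FPKM in sum over the list on HFD, against 38.5 to 113 FPKM on ND), as were 4 of 12 macrophage and 2 of 12 adipocyte markers, and 2 of 11 endothelial markers were lower. Without the ND libraries 0 and 2 the inguinal ND group is 1 library, assumed to vary like the other groups. No member was then called, by limma, where 6.68% of all genes were: Hoxc8 stood at 0.96 (adjusted p = 0.0778), Hoxc9 at 0.70 (0.285) and Hoxc5 at 0.41 (0.449). Without ND replicate 1, 7 members were called, where 31.6% of all genes were. Without ND replicate 2 only Hoxc8 was called, where 13.4% of all genes were. Hoxc9 was lost without HFD replicate 0 (adjusted p = 0.0550), HFD replicate 1 (0.0555) or ND replicate 2 (0.0512). Hoxc5 was lost without HFD replicate 0 or 1 or ND replicate 0 or 2 (0.0544 to 0.0709). Fitting the inguinal libraries alone left 1 call, Hoxc8. The part of these other cells in the differences was not tested.

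The diet effect itself differed between the white depots for 6 members, and in each it was lower in epididymal adipocytes (interaction of depot and diet, limma). Among all genes tested 7.22% had such a difference, 2.42% in this direction and 4.8% in the other. The median interaction over the 26 members was -1.06 on the log2 scale, beside 0.07 over all genes. Hoxa5 (-2.09, SE 0.43, limma adjusted p = 0.0154), Hoxa7 (-1.98, SE 0.40, adjusted p = 0.0135), Hoxd8 (-1.52, SE 0.26, adjusted p = 0.00746) and Hoxb2 (-1.53, SE 0.34, adjusted p = 0.0223) fell on HFD in epididymal adipocytes. In inguinal adipocytes their HFD and ND libraries overlapped. Hoxc8 (-1.75, SE 0.32, adjusted p = 0.00906) and Hoxc9 (-1.75, SE 0.42, adjusted p = 0.0295) rose on HFD in inguinal adipocytes, with no call in epididymal ones. Set beside the depot comparisons, Hoxd8 was called higher in epididymal than in inguinal adipocytes on ND and lower on HFD. Hoxa5, Hoxb2 and Hoxc8 were called higher on ND only, and Hoxa7 and Hoxc9 were called lower on HFD only. Hoxa7, Hoxc8 and Hoxd8 kept the call in every alternative run. Hoxa5 was lost without epididymal HFD replicate 1 (adjusted p = 0.0505). Hoxb2 was lost without epididymal HFD replicate 0 or 1, epididymal ND replicate 2 or inguinal HFD replicate 0 or 2 (0.0548 to 0.0714) and with the replicate block (0.0528). Hoxc9 was lost without 9 of the 12 white libraries, all but epididymal ND replicate 2 and inguinal ND replicates 1 and 2 (0.0526 to 0.0726). With no filter it was lost as well (limma adjusted p = 0.0631). Leaving out inguinal ND replicates 0 and 2, the libraries rich in lymphocyte markers, leaves 1 library in that group. In that fit Hoxc9 stood at -1.25 and Hoxb2 at -1.34. The total of members called was 3 without epididymal HFD replicate 1 (2.98% of all genes) and 10 without inguinal ND replicate 1 (17.6% of all genes).

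Brown adipocytes carried low- and mid-numbered genes, while the genes of paralog groups 9 to 13 stayed below 1 FPKM. With 1 brown library per diet, brown and white libraries were compared in a fit over all 14 with depot and diet as terms, so that the spread comes from the white libraries and the 2 brown ones together. That fit takes 1 diet effect for all depots, whereas the effect differed between the white depots for 6 members, Hoxc8 and Hoxc9 among them. Such a misfit adds to the spread. Against inguinal adipocytes, 4 members were lower and 1 was higher in brown ones, where 2.09% of the 16041 genes tested were called, 1.67% lower and 0.418% higher. Hoxc10 was listed at 0 in both brown libraries, against 6.75 to 13.8 FPKM in inguinal ones (limma adjusted p = 0.000269). Its fitted difference is set by the pseudocount and is not given. Hoxa10 was listed at 0 in the brown HFD and at 0.0454 FPKM in the brown ND library, against 0.518 to 10.4 FPKM in inguinal ones (log2 difference -3.42, SE 0.65, limma adjusted p = 0.0260). Hoxa9 was at 0.110 (HFD) and 0.0361 FPKM (ND) in brown libraries, against 1.25 to 10.6 FPKM in inguinal ones (log2 difference -3.25, SE 0.56, limma adjusted p = 0.0160). Hoxc9 was at 0.0701 (HFD) and 0.0439 FPKM (ND) in brown libraries, against 1.02 to 4.58 FPKM in inguinal ones (log2 difference -2.51, SE 0.45, limma adjusted p = 0.0191). Each of these 4 genes lay below every inguinal library in both brown ones. The brown values of Hoxa9, Hoxa10 and Hoxc9 also lie below the pseudocount of 0.5, so the sizes of their fitted differences depend on it. Over all alternatives these ranged from -4.87 to -2.50 (Hoxa9), -5.35 to -2.62 (Hoxa10) and -4.12 to -1.82 (Hoxc9). Hoxc4 was at 7.19 (HFD) and 6.93 FPKM (ND) in brown libraries, against 1.02 to 2.51 FPKM in inguinal ones, above all of them (log2 difference 1.72, SE 0.34, limma adjusted p = 0.0303).

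Of these 5 calls, Hoxc10 was the only one that every alternative kept. Without the brown HFD library Hoxa10 (adjusted p = 0.0814), Hoxc4 (0.0882) and Hoxc9 (0.0549) were lost, leaving 2 calls. Without the brown ND library Hoxa9 (0.136), Hoxa10 (0.127), Hoxc4 (0.157) and Hoxc9 (0.130) were lost, leaving 1, and Hoxa10 was also lost without inguinal HFD replicate 1 (0.0538). Over all genes, brown values lay below white ones, by a median of -0.35 against epididymal and -0.36 against inguinal adipocytes on the log2 scale. With TMM scaling, which took these medians to -0.01 and -0.03, 2 members were higher and 4 were lower than in inguinal adipocytes, Hoxa4 being added (log2 difference 1.55, adjusted p = 0.0382). With quantile normalization 2 were higher and 1 was lower. Skeletal muscle markers (7 genes) summed to 140 (HFD) and 51.8 FPKM (ND) in the brown libraries, against at most 34.4 FPKM in any white one. Fibroblast and preadipocyte markers summed to 593 (HFD) and 374 FPKM (ND) in brown libraries, against 827 to 2097 FPKM in inguinal ones, and 6 of 12 were lower. Macrophage markers summed to 164 (HFD) and 24.8 FPKM (ND) in brown libraries, against 159 to 355 FPKM in inguinal ones, and 5 of 12 were lower. The part of these cells in the HOX values was not tested.

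Against epididymal adipocytes no member was called in brown ones by limma, where 8.25% of all genes were (7.32% lower, 0.923% higher), and 3 had an unadjusted p under 0.05. These were Hoxc8 (log2 difference -1.16, adjusted p = 0.0964), Hoxc9 (-1.52, adjusted p = 0.0527) and Hoxc10 (adjusted p = 0.156). The SE of Hoxc8 was 0.41 in this additive fit and 0.22 with 1 mean for each of the 6 groups. The lack of a call therefore does not show that the 2 depots are alike. Hoxc9 lay below all 6 epididymal libraries in both brown ones, at 0.0701 (HFD) and 0.0439 FPKM (ND) against 0.620 to 2.04 FPKM. Hoxc8 did so as well, at 13.2 (HFD) and 15.8 FPKM (ND) against 23.9 to 49.0 FPKM. With a pseudocount of 0.1, Hoxc9 and Hoxc10 were called (adjusted p = 0.00731 and 0.0373), and in a fit of the brown and epididymal libraries alone Hoxc8 and Hoxc9 were (0.0183 and 0.0184). Hoxa5 was at 6.65 (HFD) and 3.25 FPKM (ND) in brown adipocytes, against 1.23 to 1.72 FPKM (HFD) and 4.10 to 5.81 FPKM (ND) in epididymal ones. Hoxa7 was at 5.35 (HFD) and 5.86 FPKM (ND), Hoxd8 at 5.93 and 6.02 FPKM and Hoxc5 at 6.84 and 5.69 FPKM in the same brown libraries. The median difference of the members from epididymal adipocytes was -0.15, above that of all genes. Of the markers, 11 of 12 macrophage, 5 of 12 fibroblast and preadipocyte and 6 of 9 mesothelial genes were lower in brown than in epididymal adipocytes, and their part was not tested.

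Among the other tested members, Hoxa2, Hoxa4, Hoxb3, Hoxb4, Hoxb5, Hoxb7 and Hoxd3 were called in no comparison. Hoxa2 and Hoxb3 reached at most 2.01 FPKM in any library. Hoxa4 ranged over 0.280 to 3.44 FPKM, Hoxb4 over 1.16 to 3.60, Hoxb5 over 1.05 to 2.67, Hoxb7 over 0.276 to 4.72 and Hoxd3 over 3.25 to 7.02 FPKM. Hoxa4 was nevertheless higher in every epididymal than in any inguinal library of the same diet, at 1.59 to 1.88 against 0.644 to 1.35 FPKM on HFD and 1.49 to 3.44 against 0.280 to 1.06 FPKM on ND. Its limma adjusted p was 0.279 on HFD and 0.0583 on ND.

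The partners and keepers of the HOX pattern were measured in the same libraries. Of 9 genes of the PBX and MEIS cofactor families, 7 were tested in the white libraries. Meis1 was lower on HFD in epididymal adipocytes, at 2.82 ± 0.659 FPKM against 7.42 ± 1.59 FPKM on ND (SD, n = 3 each, log2 difference -1.25, SE 0.29, limma adjusted p = 0.00989), and Pbx2 was lower as well (-0.63, adjusted p = 0.0432). On ND, Meis1 was higher in epididymal than in inguinal adipocytes (1.14, limma adjusted p = 0.0392). In inguinal adipocytes Pbx2 fell on HFD (-0.62, limma adjusted p = 0.0464). None was called between the white depots on HFD or in the interaction. In brown adipocytes Meis3 was lower than in epididymal ones (-1.51, limma adjusted p = 0.0347), 1 of 8 tested, where 7.32% of all genes were lower.

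Among 24 Polycomb genes, 6 were lower and 1 was higher on HFD in epididymal adipocytes, where 7.35% of all genes tested were lower and 12.2% higher. The largest difference was that of Cbx7, a histone-reading subunit of a Polycomb complex, at 2.65, 2.25 and 3.34 FPKM on HFD against 9.41, 12.2 and 17.2 FPKM on ND (log2 difference -2.02, SE 0.32, limma adjusted p = 0.000923). Cbx6 (-1.39, adjusted p = 0.00129), Pcgf2 (-1.19, adjusted p = 0.0276) and Phf1 (-1.02, adjusted p = 0.0124) followed. In inguinal adipocytes Cbx7 (-1.85, limma adjusted p = 0.00279) and Phf1 (-1.37, adjusted p = 0.00363) were lower on HFD as well, 2 of 24 with none higher. Of all genes tested there, 10.2% were lower and 9.3% higher, so the count of lower Polycomb genes was near the general share. Cbx7 was thus lower on HFD in both white depots. In inguinal adipocytes it was at 5.56, 5.85 and 7.05 FPKM on HFD, against 25.8, 13.8 and 35.9 FPKM on ND. Among these ND libraries it was highest in 0 and 2, those rich in lymphocyte markers. Of 12 Trithorax and H3K27 demethylase genes none was called on diet in epididymal adipocytes, and 3 were lower on HFD in inguinal ones: Kmt2d (-1.33, adjusted p = 0.0100), Kmt2a (-1.27, adjusted p = 0.00420), the enzyme known for keeping HOX genes active, and Psip1 (-1.09, adjusted p = 0.0234). Kmt2a was at 2.93, 3.18 and 3.20 FPKM on HFD, against 9.09, 5.64 and 10.5 FPKM on ND, highest in the ND libraries 0 and 2 with the most lymphocyte markers. Kmt2d was highest in the same libraries, at 10.4, 5.67 and 14.8 FPKM on ND. The part of lymphocytes in these differences was not tested. Between the white depots, Phf1 on ND (-0.93, adjusted p = 0.0462) was the 1 call among the Polycomb genes, and the Trithorax list had none. Neither list had a call in the interaction or in brown adipocytes.

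Of 20 noncoding and Evx genes in or beside the clusters, 5 were tested in the white libraries. Hoxaas2 (-1.19, limma adjusted p = 0.0463) and Hoxb3os (-0.96, adjusted p = 0.0416), antisense RNAs that overlap members, were lower on HFD in epididymal adipocytes, and without a strand setting their reads cannot be told apart from those of the genes they overlap. Hotairm1, a noncoding RNA of the Hoxa cluster, averaged 8.60 ± 4.86 FPKM on HFD and 23.9 ± 13.1 FPKM on ND in epididymal adipocytes (SD, n = 3 each, log2 difference -1.46, adjusted p = 0.0654). Hotair, Hottip, Evx1, Evx2 and the precursors of miR-10, miR-196 and miR-615 were listed at 0 in all 14 libraries. The 6 ParaHox and Cdx genes, relatives of the HOX genes outside the clusters, were listed at 0 throughout except for a trace of 0.161 FPKM in 1 epididymal HFD library, and none was tested.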

How the data were processed

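FPKM values per gene, 1 table for each of the 14 libraries, were made by the authors with TopHat2 2.0.9 and Cuffdiff 2.1.1 on mm10, per the submitters' processing notes. The annotation, strand setting and normalization between libraries are not given in the sources used here. Per the labels' protocols, polyA RNA was sequenced on an Illumina HiSeq instrument. From the deposited FPKM, log2(FPKM + 0.5) was fitted over all genes at 0.5 FPKM or more in at least 3 of the 12 white libraries, with 1 mean per depot and diet (limma 3.58.1 in R 4.3.3, empirical Bayes with trend, two-sided, Benjamini-Hochberg adjustment over all 14959 genes, calls at an adjusted p under 0.05). Brown comparisons used all 14 libraries, genes at 0.5 FPKM in at least 2 of them (16041) and additive terms for depot and diet. A log2 difference on this scale understates the change of low genes. Gene symbols were found for 36638 of the 38553 identifiers. Promoters and coordinates are RefSeq's (GRCm38.p6).

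The HOX genes, the cofactor, chromatin and marker lists and the tests were chosen with earlier results of these data known. Values are given library by library for called members of at least 2 FPKM in some group and for the 5 highest of each group, others by range. The labels say that the white libraries are biological triplicates and do not say what a replicate number shares. Deviations of same-numbered libraries from their group means correlated at 0.184, 0.111 and 0.146 (Pearson's r over genes) between the white depots on HFD. Elsewhere they were not above 0.1 for every number. The block is therefore given beside the HFD depot comparison, and for the other comparisons only as 1 of the alternatives. The highest single value was 0.272, for replicate 0 between the diets in inguinal adipocytes. Differently numbered libraries were not compared, so a pairing is not established. Alternatives were other pseudocounts (0.1, 1), filters (none, 2 FPKM), TMM and quantile scaling, fits of the compared groups alone, the replicate block and leaving out libraries. One HOX gene and a cofactor gene enter the counts, sums and medians, and their own results are not reported here.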

Additional observations from a re-analysis of the deposited data

Results flagged for a closer look

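In 6 HOX genes the diet effect differed between epididymal and inguinal adipocytes by the test of the difference itself (limma interaction, effect of HFD in epididymal minus that in inguinal adipocytes, log2 scale). Hoxa5 had -2.09 (adjusted p = 0.0154), Hoxa7 -1.98 (adjusted p = 0.0135), Hoxb2 -1.53 (adjusted p = 0.0223) and Hoxd8 -1.52 (adjusted p = 0.00746), each with a fall in epididymal adipocytes. Hoxc8 had -1.75 (adjusted p = 0.00906) and Hoxc9 -1.75 (adjusted p = 0.0295), each with a rise in inguinal adipocytes. Endothelial markers differed in the same direction (11 of 11 called, beside 2.42% of all genes). Lymphocyte markers (5 of 14) and macrophage markers (4 of 12) differed in the opposite one, beside 4.8% of all genes. The part of these cells in the HOX interaction was not tested.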

How the results depend on the processing

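Of the 41 calls of single HOX genes, 16 were kept under every alternative run and none changed direction. Over their 666 alternative values, 537 stayed past the threshold. The number of members called between brown and epididymal adipocytes was 0, and 2 with a pseudocount of 0.1, 2 with only these depots in the fit and 2 with 1 mean for each of the 6 groups. Between brown and inguinal adipocytes it was 5, and 3 with quantile normalization, 1 with only these depots, 9 with 1 mean for each of the 6 groups and 1 to 5 with 1 library left out. Between epididymal and inguinal adipocytes on ND it was 6, and 1 with only these groups, 3 without replicate 2 of both, and 2 to 9 with 1 library left out. On HFD it was 10, and 5 to 7 with 1 library left out. The diet comparison in inguinal adipocytes gave 3, and 1 with only these groups, 0 without ND replicates 0 and 2, 5 without ND replicates 1 and 2, and 1 to 7 with 1 library left out. The diet comparison in epididymal adipocytes gave 11, and 8 to 10 with 1 library left out. The interaction gave 6, and 3 to 10 with 1 library left out. The counts of 9 (ND depots), 7 (diet, inguinal) and 10 (interaction) all came without inguinal ND replicate 1. There 20.7%, 31.6% and 17.6% of all genes were called. With the replicate number as a block the counts were 6 (ND depots), 8 (HFD depots), 10 (diet, epididymal), 3 (diet, inguinal) and 5 (interaction). Beside the calls named with the results, the block lost Hoxb9 (limma adjusted p = 0.0682) on diet in epididymal adipocytes. The means of 6 groups and the joint removal of replicate 2 were chosen after seeing the data. Where a count fell because libraries were left out, fewer samples entered the fit, and elsewhere the cause was not tested. No counts were used, so the depth behind low FPKM values, such as those of Hoxb9 or Hoxd10, cannot be given.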
